A study of Mus musculus with 8 samples.

Results

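To examine Isl1 together with the proteins that it works with, 10 genes were taken as the LIM complex: the LIM-homeodomain genes Isl1 and Lhx2, the cofactors Ldb1 and Ldb2, the single-stranded DNA binding proteins Ssbp2, Ssbp3 and Ssbp4, the LIM-only genes Lmo1 and Lmo4, and the ubiquitin ligase Rlim. They were chosen by name for their known roles, from 20701 gene symbols, and all 10 were present in the table. Outflow tract with right ventricle (OFT/RV) was dissected from single C57BL/6 mouse embryos at E10.5, and polyadenylated RNA was sequenced for 4 wild-type embryos (CTRL) and 4 Isl1 hypomorphic embryos (Isl1_hypo). The hypomorphs were homozygous for an Isl1 allele with floxed and neo elements (f;neo/f;neo), which lowers Isl1 expression without removing it and is not limited to one cell type, and they die soon after birth. The comparison asks whether the RNA of the partners differs where that of Isl1 is reduced.

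Isl1 binds DNA through its homeodomain and binds other proteins through its LIM domains. LDB proteins bind the LIM domains and dimerize, so that LIM factors bound at distant sites can be brought together, and SSBP proteins bind LDB and protect it from degradation. LMO proteins have LIM domains but no homeodomain and compete for LDB, while RLIM marks LDB and LIM proteins with ubiquitin. In the embryonic heart, Isl1 is best known as a factor of second heart field progenitors, which supply the outflow tract and the right ventricle.

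After 1 transcript was kept per gene, the libraries held 29748458 to 46678973 counts in CTRL and 18422245 to 33050298 in Isl1_hypo. Cardiomyocyte RNA was abundant in both groups (summed CPM, counts scaled to library depth by the TMM method, of 6 markers, 30903 to 37930 in CTRL and 33068 to 40122 in Isl1_hypo). Most of this sum was Actc1. By sign 3 of the 6 markers were lower and 3 higher (median −0.03 on the log2 scale). The myosin genes Myh7 (log2 fold change −0.49, adjusted p = 0.165 by edgeR) and Myh6 (−0.31, adjusted p = 0.391) were lower in Isl1_hypo at an unadjusted p under 0.05, as were 6.17% of all tested genes. Globin RNA, a measure of blood summed over 9 genes of which near-identical copies share reads, was at 2020 to 11897 CPM in CTRL and 11870 to 25516 in Isl1_hypo. The library of Isl1_hypo replicate 1 also carried epithelial markers (70.1 CPM summed over 7 genes, against 0.288 to 2.28 in the other libraries). Nearly all of this was Cldn6 (38.5 CPM), Cdh1 (15.3), Epcam (9.83) and Esrp1 (6.03). The pharyngeal markers Foxa2 (0.272) and Pax9 (0.163) were sparse there, and Shh had no counts. Isl1_hypo replicate 3 had the most globin and the fewest genes detected (14305). Y-linked genes were expressed in 1 CTRL and 3 Isl1_hypo libraries. Nothing in the labels ties same-numbered embryos to each other, and embryos were taken as the replicates.

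Isl1 itself came first, as the targeted gene. It lies on chromosome 13 (mm9, 117088478 to 117099896, minus strand) and is represented by 1 RefSeq transcript. In CTRL replicates 1 to 4 it was at 29.6, 61.5, 46.2 and 51.3 CPM, and in the Isl1_hypo replicates at 12.7, 6.86, 7.71 and 11.4 CPM. The lowest CTRL embryo stood well above the highest Isl1_hypo embryo, so the groups did not overlap, but CTRL replicate 1 was the lowest of its group by a wide margin. Mean CPM fell from 47.2 ± 13.3 in CTRL to 9.67 ± 2.83 in Isl1_hypo (SD, n = 4), so that 20.5% remained. The log2 fold change was −2.29 (SE 0.256, 95% interval −2.85 to −1.73, adjusted p = 0.0077 by edgeR's quasi-likelihood test over 13769 genes), so the interval spans 0.139 to 0.302 of the CTRL level. In each library 183 or more counts lay behind the value. The relative spread was nearly the same in both groups (coefficient of variation 28.2% in CTRL and 29.2% in Isl1_hypo), while the median gene with at least 5 CPM varied by 11.8% and 16.3%. Ranked by RPKM (reads per kilobase of transcript and per library total) among the tested genes, Isl1 stood at percentile 68.1 in CTRL and 35.8 in Isl1_hypo. When globin RNA entered the edgeR fit as a covariate, the fold change of Isl1 was −2.30 on the log2 scale and its adjusted p was 0.519 (unadjusted p = 7.21e-05). With the replicate number as a block in edgeR the fold change was −2.29 and the adjusted p was 0.0722 (unadjusted p = 3.14e-05). In both of these fits 0 of all genes passed after adjustment. The difference was present in embryos with Y-linked expression (log2 ratio −2.12, 1 CTRL against 3 Isl1_hypo) and in those without (−2.79, 3 against 1).

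Of the 9 members tested 1 had an adjusted p under 0.05 in the main fit, which was Isl1 (0 with the globin covariate or the replicate block). Over all tested genes the share was 37 of 13769, or 0.269%, with 17 genes lower (0.123%) and 20 higher (0.145%) in Isl1_hypo. In the same fit it was also the only tested member with an unadjusted p under 0.05, against 11.9% of all genes in either direction, 6.17% lower and 5.69% higher. Groups did not overlap in CPM for 2 of the 9 members, Isl1 and Lmo4, against 8.5% of all genes. The other 8 members tested had adjusted p-values from 0.505 to 0.98. Of the 9 members 4 were lower and 5 higher by sign, with a median log2 fold change of 0.02, beside 0.0057 over all genes. These are whole-tissue values, in which fewer cells of a type and less RNA per cell cannot be told apart, and RNA levels do not give the amount of protein.

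**Figure D1:**
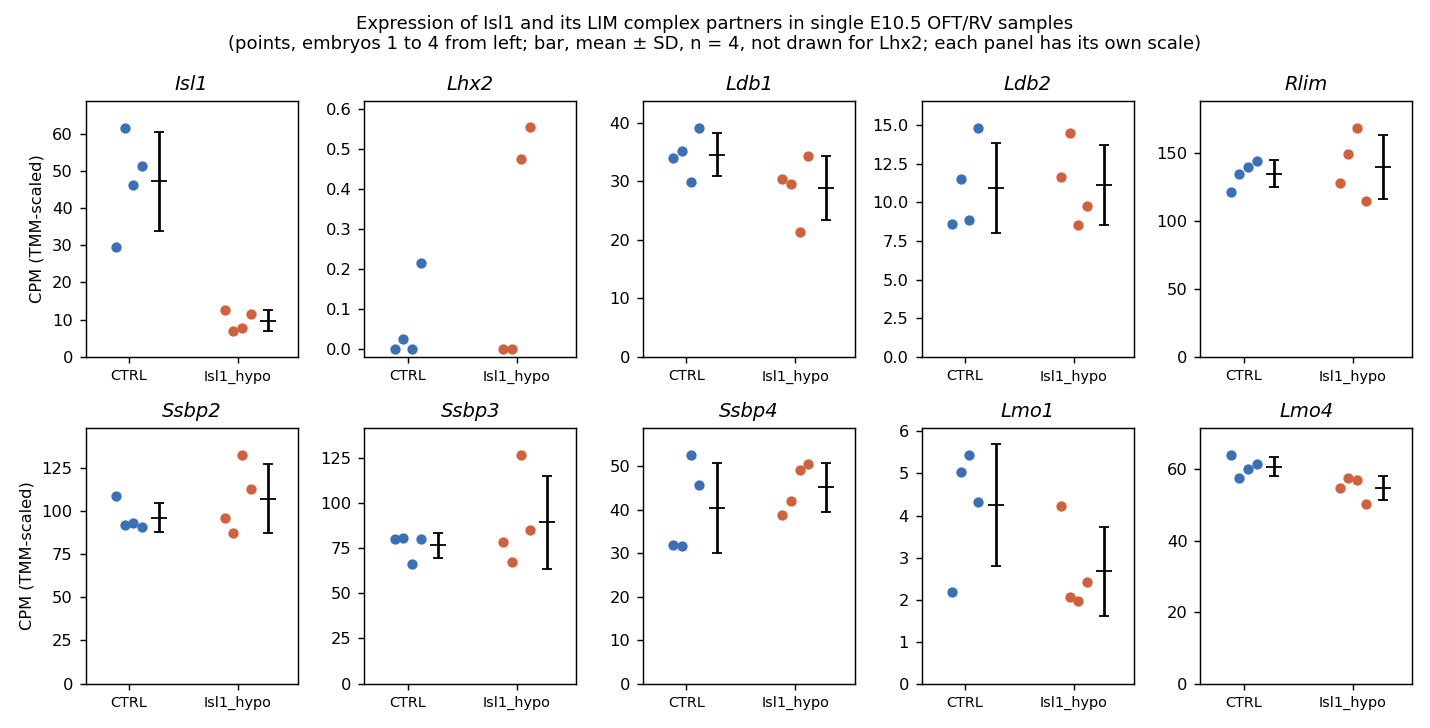
TMM-scaled CPM (y axis, from 0 except for a small margin under Lhx2, one scale per gene) of the 10 members in CTRL (blue) and Isl1_hypo (orange). Points are embryos 1 to 4 from left and black bars are mean ± SD (n = 4, not drawn for Lhx2). Isl1 is separated by a wide gap (29.6 CPM or more in CTRL, 12.7 or less in Isl1_hypo), while the groups of the partners overlap or, for Lmo4, nearly touch.

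Lhx2, the other LIM-homeodomain gene of the set (chromosome 2, 38194801 to 38225253, plus strand), was close to absent from this tissue. CTRL replicates 1 to 4 held 0, 1, 0 and 10 counts, and the Isl1_hypo replicates held 0, 0, 15 and 16. A count of 0 allows up to 3 counts, equal to 0.0745 to 0.163 CPM in the 4 libraries concerned, for counting error only. Nearly all of its reads came from CTRL replicate 4 and Isl1_hypo replicates 3 and 4. The gene did not pass the filter on low counts, and no fold change is given.

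The promoter of Isl1 is shown because this is the gene that the hypomorphic allele lowers, that of Lmo1 because it is the partner with the most negative fold change, and that of Ldb1 because its product is the common cofactor. Each sequence is the 250 bases before the first listed RefSeq start of the gene, 5′ to 3′ on the minus strand, placed in mm9. The RefSeq starts of Lmo1 and Ldb1 lie upstream of the 5′ ends that GENCODE gives (the gene coordinates printed with their values), so the 2 annotations differ for these genes, by more for Lmo1. Capitals mark the letters TAAT on either strand (TAAT or ATTA), the core that homeodomains commonly recognise.
Isl1 chr13:117099897-117100146: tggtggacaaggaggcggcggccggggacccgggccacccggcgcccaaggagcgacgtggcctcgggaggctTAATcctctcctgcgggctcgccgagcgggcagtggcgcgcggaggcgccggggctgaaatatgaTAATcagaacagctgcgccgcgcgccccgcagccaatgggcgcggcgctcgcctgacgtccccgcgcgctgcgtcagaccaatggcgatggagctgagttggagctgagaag
Lmo1 chr7:116318722-116318971: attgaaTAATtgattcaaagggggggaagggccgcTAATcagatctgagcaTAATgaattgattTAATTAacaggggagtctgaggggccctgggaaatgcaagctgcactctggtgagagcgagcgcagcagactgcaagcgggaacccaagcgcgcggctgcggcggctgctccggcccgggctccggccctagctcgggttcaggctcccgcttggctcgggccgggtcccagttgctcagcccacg
Ldb1 chr19:46119802-46120051: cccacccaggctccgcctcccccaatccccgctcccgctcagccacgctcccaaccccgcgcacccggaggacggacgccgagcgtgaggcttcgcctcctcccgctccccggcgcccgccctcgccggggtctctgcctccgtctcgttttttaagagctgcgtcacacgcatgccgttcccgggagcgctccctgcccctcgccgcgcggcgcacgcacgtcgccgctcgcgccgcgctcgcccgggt
The Isl1 window held 2 matches, which began 177 and 112 bases before the start, in sequence of 71.2% GC. The Lmo1 window held 5, at 244, 215, 199, 186 and 184 bases before the start, of which the last 2 overlap within TAATTA, and its GC content was lower (61.2%). No match lay in the Ldb1 window, where GC was 76%. Of the 9 members with an entry among the RefSeq promoters, Isl1 and Lmo1 were the 2 with a match, whereas 55.3% of 27025 genes held at least 1. Only the first listed start of each gene was counted. Ldb2 had no entry. A match is a description of letters and not a bound site.

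LDB cofactors were examined next, since all LIM-homeodomain complexes draw on them. Ldb1 (chromosome 19, 46107083 to 46119704, minus strand) was at 34.1, 35.3, 29.998 and 39.1 CPM in CTRL and at 30.5, 29.6, 21.4 and 34.3 CPM in Isl1_hypo. The ranges overlapped, and Isl1_hypo replicate 3 was the lowest of the 8 libraries. Means were 34.6 ± 3.76 and 28.9 ± 5.45 CPM, and the log2 difference of the groups was −0.26 (SE 0.159, 95% interval −0.61 to 0.09, adjusted p = 0.541 by edgeR). Without Isl1_hypo replicate 3 the estimate was −0.14, and with globin RNA as a covariate it was −0.26. In the embryos with Y-linked expression the log2 ratio of Ldb1 was −0.06, and in those without it was −0.29.

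Ldb2, the second LDB cofactor (chromosome 5, 44863372 to 45190946, minus strand), was at 8.57, 11.5, 8.84 and 14.8 CPM in CTRL and at 11.6, 14.5, 8.53 and 9.76 CPM in Isl1_hypo. Both groups spanned nearly the same range. The log2 fold change was 0.02 (SE 0.232, 95% interval −0.49 to 0.53, adjusted p = 0.98 by edgeR), and its sign turned in 6 of 20 alternative analyses. The log2 ratio of Ldb2 was 0.17 with and 0.32 without Y-linked expression. Per transcript length Ldb1 was above Ldb2 in every embryo, with a mean ratio of RPKM of 4.15 ± 0.710 in CTRL and 3.39 ± 0.784 in Isl1_hypo (SD, n = 4), and the groups overlapped. Summed RPKM of the pair was 12.7 ± 1.73 in CTRL and 10.9 ± 2.001 in Isl1_hypo, also with overlap.

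SSBP adaptors stabilise LDB. Ssbp2 (chromosome 13, 91599888 to 91843034, plus strand) was at 109, 91.6, 92.7 and 90.8 CPM in CTRL and at 96.0, 87.0, 132 and 113 CPM in Isl1_hypo. In CTRL 3 embryos lay close together and replicate 1 stood above them, and in Isl1_hypo the spread was wider. Its log2 fold change was 0.16 (SE 0.135, 95% interval −0.14 to 0.45, adjusted p = 0.671 by edgeR). Without Isl1_hypo replicate 3 it was 0.0394, without Isl1_hypo replicate 2 it was 0.24, and with the length trend removed it was 0.30.

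Ssbp3, the adaptor gene on chromosome 4 (106583306 to 106722299, plus strand), was at 79.9, 80.3, 66.4 and 79.7 CPM in CTRL and at 78.3, 67.3, 126 and 85.0 CPM in Isl1_hypo. A single library, Isl1_hypo replicate 3, lay far above the rest, and 3 of the 4 Isl1_hypo embryos sat near the CTRL range. The log2 fold change of Ssbp3 was 0.22 (SE 0.174, 95% interval −0.16 to 0.60, adjusted p = 0.637 by edgeR), and without Isl1_hypo replicate 3 it was 0.0058. That library also had the lowest Ldb1, the highest Ssbp2 and Rlim, the highest globin and the fewest detected genes.

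Ssbp4 (chromosome 8, 73121390 to 73132213, minus strand) was at 31.8, 31.7, 52.5 and 45.6 CPM in CTRL and at 38.8, 42.1, 49.2 and 50.4 CPM in Isl1_hypo. Both CTRL extremes lay outside the Isl1_hypo range. The log2 fold change was 0.16 (SE 0.181, 95% interval −0.24 to 0.55, adjusted p = 0.759 by edgeR). It was 0.0557 without CTRL replicate 1, 0.31 without CTRL replicate 3 and −0.25 with the globin covariate. Summed over the 3 SSBP genes, RPKM was 40.7 ± 2.73 in CTRL and 45.2 ± 7.61 in Isl1_hypo (SD, n = 4), with overlap. The log2 ratios of the SSBP genes differed in sign between the embryos with and without Y-linked expression, at 0.29 and −0.16 for Ssbp2, 0.54 and −0.25 for Ssbp3, and −0.19 and 0.21 for Ssbp4. Each of these ratios rests on 1 embryo in 1 of the groups (1 CTRL against 3 Isl1_hypo with Y-linked expression, 3 against 1 without). Relative to the summed LDB pair the SSBP sum was at a ratio of 3.25 ± 0.534 in CTRL and 4.39 ± 1.74 in Isl1_hypo, where replicate 3 alone reached 6.96 and the other 3 embryos were between 3.22 and 3.90.

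LIM-only proteins compete with LIM-homeodomain factors for LDB. Lmo4 (chromosome 3, 143851494 to 143868184, minus strand) was at 64.0, 57.6, 60.2 and 61.5 CPM in CTRL and at 54.7, 57.5, 57.0 and 50.3 CPM in Isl1_hypo. Every CTRL embryo was above every Isl1_hypo embryo, but CTRL replicate 2 and Isl1_hypo replicate 2 were almost equal. The means of 60.8 ± 2.69 and 54.9 ± 3.28 CPM left 90.2% of the CTRL level (log2 fold change −0.15, SE 0.103, 95% interval −0.37 to 0.08, adjusted p = 0.585 by edgeR). Lmo4 was the least variable member, with a coefficient of variation of 4.43% in CTRL and 5.98% in Isl1_hypo, and its fold change was negative under all 20 alternatives (−0.18 to −0.11). It was −0.16 in the embryos with Y-linked expression and −0.0870 in those without.

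Lmo1 (chromosome 7, 116282086 to 116313822, minus strand), the rarer LIM-only gene, was at 2.18, 5.04, 5.44 and 4.32 CPM in CTRL and at 4.24, 2.06, 1.96 and 2.42 CPM in Isl1_hypo. The ranges overlapped, with CTRL replicate 1 the low embryo of its group and Isl1_hypo replicate 1 the high embryo of its group, and Isl1_hypo replicates 1 and 4 lay within the CTRL range. The means were 4.24 ± 1.45 and 2.67 ± 1.06 CPM, 62.9% of the CTRL level in Isl1_hypo (log2 fold change −0.68, SE 0.377, 95% interval −1.50 to 0.15, unadjusted p = 0.0985, adjusted p = 0.505 by edgeR). Without Isl1_hypo replicate 1, the library with the epithelial markers, the estimate was −0.98 (unadjusted p = 0.0247, adjusted p = 0.304 by edgeR), and without CTRL replicate 1 it was −0.90 (unadjusted p = 0.0263, adjusted p = 0.447 by edgeR). With limma-voom and sample quality weights it was −0.79 (unadjusted p = 0.0411, adjusted p = 0.341), so Lmo1 passed an unadjusted p of 0.05 in these 3 alternatives and did not pass after adjustment. The estimate nearest to 0 among the 20 alternatives was −0.54, without CTRL replicate 3 (unadjusted p = 0.231, adjusted p = 0.711 by edgeR). Log2 ratios of −0.92 and −0.90 were found in the embryos with and without Y-linked expression. Across its 3 RefSeq transcripts, which share most of their reads, the log2 ratio of the group means lay between −0.67 and −0.61.

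Rlim, the ligase gene (chromosome X, 101152502 to 101176623, minus strand), was at 122, 135, 140 and 144 CPM in CTRL and at 128, 149, 169 and 115 CPM in Isl1_hypo. Isl1_hypo held both the highest and the lowest embryo. The log2 fold change of Rlim was 0.05 (SE 0.127, 95% interval −0.23 to 0.33, adjusted p = 0.899 by edgeR), and with the length trend removed it was 0.20. As Rlim is X-linked and the groups differed in the number of embryos with Y-linked expression, the ratio was also taken within each kind, and it was −0.03 with and 0.16 without Y-linked expression.

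**Figure D2:**
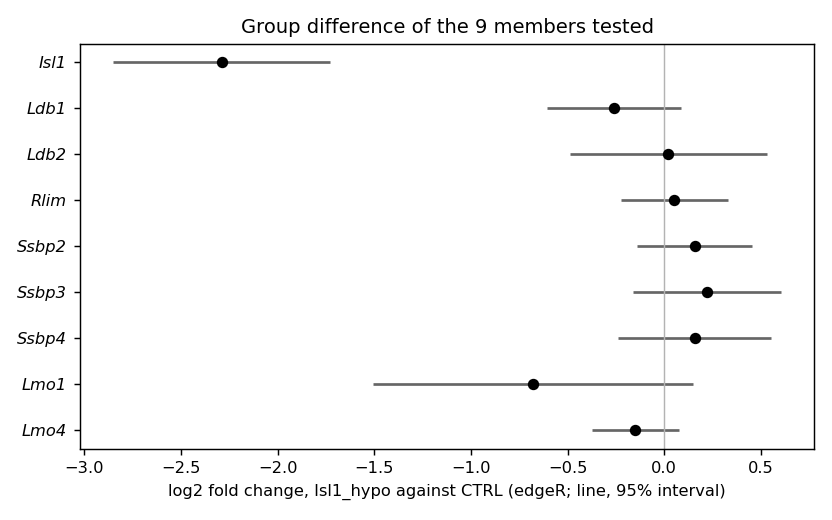
Log2 fold change of Isl1_hypo against CTRL (x axis) for the 9 members tested (y axis), with points for the edgeR estimate and lines for the 95% interval. The interval of Isl1 (−2.85 to −1.73) lies wholly below 0, and the intervals of the 8 partners include 0.

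The intervals also show how large a change could have been missed. For Ldb1, Ssbp2, Lmo4 and Rlim and for Ldb2, Ssbp3 and Ssbp4, both bounds were within 0.61 of 0 on the log2 scale. Lmo1 was measured less well, with a lower bound of −1.50. The intervals of all 8 partners ended above −1.73, the end of the Isl1 interval nearest to 0.

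To compare levels between genes, RPKM was used, which divides by transcript length. In CTRL the order of mean RPKM was Lmo4 (21.99), Ssbp4 (17.0), Ssbp3 (14.8), Isl1 (11.5), Rlim (11.2), Ldb1 (10.2), Ssbp2 (8.87), Lmo1 (2.55), Ldb2 (2.53) and Lhx2 (0.0159). Neighbours in this order overlapped in range except at 2 steps, from Ssbp2 to Lmo1 and from Ldb2 to Lhx2. The range of Isl1 in CTRL overlapped those of Rlim and Ldb1 and was wider than either.

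In Isl1_hypo, mean RPKM was 19.5 for Lmo4, 18.6 for Ssbp4, 16.9 for Ssbp3, 11.3 for Rlim, 9.69 for Ssbp2 and 8.35 for Ldb1. After a gap followed Ldb2 (2.53), Isl1 (2.32) and Lmo1 (1.59), and after another Lhx2 (0.067). Isl1 had moved from the upper to the lower of these blocks, where its range overlapped those of Ldb2 and Lmo1, although it was above Lmo1 in all 4 embryos. The other 9 members stayed in the block that they had in CTRL.

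**Figure D3:**
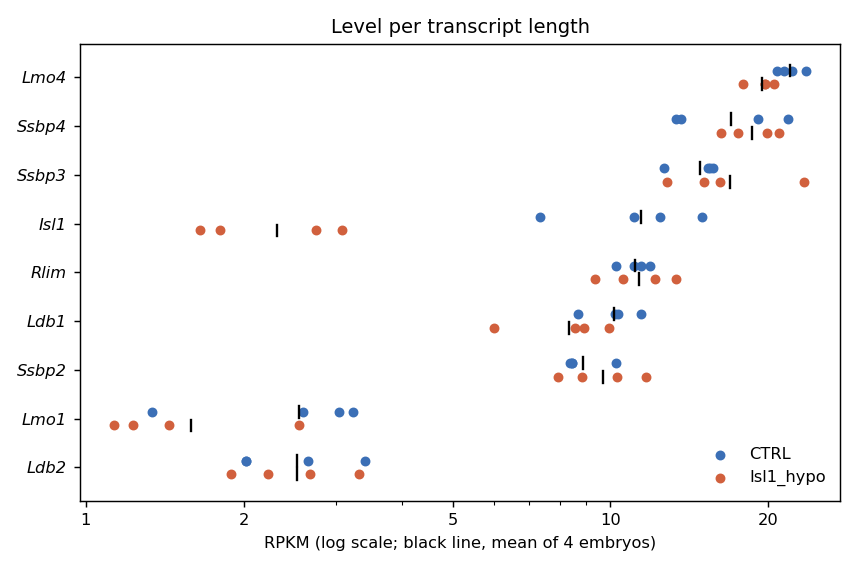
RPKM (x axis, log scale) of 9 members (y axis, ordered by CTRL mean) in the 4 CTRL (blue) and 4 Isl1_hypo (orange) embryos, with black lines at the group means. Isl1 goes from a mean of 11.5 to 2.32, down to the range of Ldb2 and Lmo1, and the ranges of the other genes overlap between the groups or, for Lmo4, lie side by side.

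Since these proteins act in a shared complex, ratios of RPKM were taken within each embryo. Isl1 relative to Ldb1 was 0.722, 1.45, 1.28 and 1.09 in CTRL and 0.346, 0.193, 0.300 and 0.276 in Isl1_hypo. The groups did not overlap, and the mean ratio was 1.13 ± 0.311 in CTRL and 0.279 ± 0.0644 in Isl1_hypo (SD, n = 4). Lmo4 relative to Isl1 was 3.21, 1.39, 1.93 and 1.78 in CTRL and 6.39, 12.4, 10.96 and 6.54 in Isl1_hypo, again without overlap (means 2.08 ± 0.787 and 9.08 ± 3.08). Both ratios contain Isl1 and follow its level. Of the ratios without Isl1, those of Lmo4 to Ldb1 (2.18 ± 0.252 and 2.42 ± 0.625), Lmo1 to Lmo4 (0.118 ± 0.0434 and 0.0818 ± 0.0334) and Ssbp3 to Ldb1 (1.46 ± 0.0861 and 2.18 ± 1.15) all overlapped between the groups. The summed RPKM of Lmo1 and Lmo4 was 24.9, 23.8, 24.7 and 24.8 in CTRL and 22.2, 21.7, 20.9 and 19.4 in Isl1_hypo, which did not overlap. This sum is almost all Lmo4, and it was not tested.

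**Figure D4:**
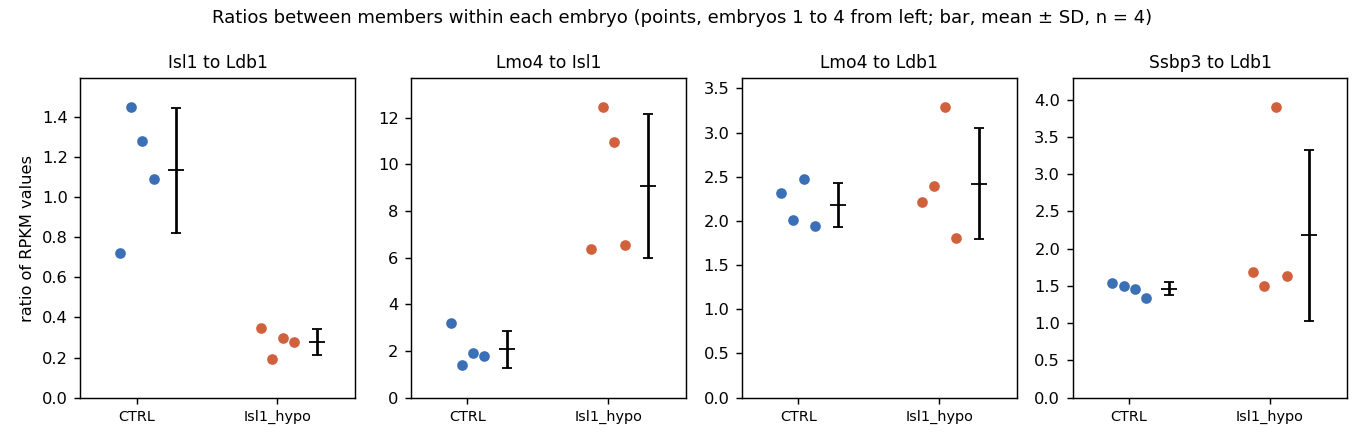
Ratios of RPKM within each embryo (y axis, from 0) for Isl1 to Ldb1, Lmo4 to Isl1, Lmo4 to Ldb1 and Ssbp3 to Ldb1, in CTRL (blue) and Isl1_hypo (orange). Points are embryos 1 to 4 from left and black bars are mean ± SD (n = 4). The 2 ratios that contain Isl1 separate the groups, and the other 2 overlap, with Isl1_hypo replicate 3 at 3.90 for Ssbp3 to Ldb1.

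Other LIM genes could occupy the same cofactors. Of 13 further LIM-homeodomain, LIM-only and ligase genes 6 were tested, of which 2 were lower and 4 higher by sign (median log2 fold change 0.26), 2 had an unadjusted p under 0.05 and none passed after adjustment by edgeR's quasi-likelihood test. Both of these were LIM-homeodomain genes and both were higher in Isl1_hypo. Over all tested genes 11.9% had an unadjusted p under 0.05 (5.69% higher in Isl1_hypo), and 8.5% had groups that did not overlap. Lhx9 was at 0.576, 2.46, 2.81 and 4.21 CPM in CTRL and at 5.81, 5.81, 9.01 and 7.09 CPM in Isl1_hypo. The groups of Lhx9 did not overlap, and its log2 fold change was 1.46 (SE 0.456, unadjusted p = 0.00824, adjusted p = 0.259 by edgeR). Lmx1a was at 0.704, 0, 0.869 and 1.58 CPM in CTRL and at 4.29, 0.974, 7.33 and 2.46 CPM in Isl1_hypo, with overlap (log2 fold change 2.24, SE 0.907, unadjusted p = 0.0301, adjusted p = 0.352 by edgeR). Isl2, the closest relative of Isl1, was sparse, at a mean of 1.001 ± 0.534 CPM in CTRL and 0.602 ± 0.0860 in Isl1_hypo (log2 fold change −0.73, adjusted p = 0.658 by edgeR). Rnf6, the relative of Rlim, was at 78.6 ± 8.40 and 84.6 ± 13.2 CPM (log2 fold change 0.11, adjusted p = 0.775 by edgeR). Lhx5, Lhx8 and Lmx1b had no counts in any library.

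Ldb1 also serves the complex of erythroid cells, in which Lmo2 bridges it to Tal1 and Gata1. All 9 genes listed for that complex, without Ldb1, were tested, with 5 lower and 4 higher by sign and a median log2 fold change of −0.09. Those with an unadjusted p under 0.05, against 11.9% of all tested genes, were Tal1 (6.75 ± 1.63 CPM in CTRL and 12.5 ± 3.30 in Isl1_hypo, log2 fold change 0.89, adjusted p = 0.201 by edgeR) and Gata1 (3.29 ± 2.70 and 9.999 ± 4.51 CPM, log2 fold change 1.59, adjusted p = 0.312 by edgeR). Lmo2, which endothelial cells also express, was at 12.7 ± 4.02 and 11.3 ± 2.61 CPM (log2 fold change −0.17, adjusted p = 0.827 by edgeR). Globin RNA was higher in the same Isl1_hypo libraries by summed CPM, with a touch of overlap between CTRL replicate 4 and Isl1_hypo replicate 2. Its part in the Tal1 and Gata1 values was not tested.

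Other genes expressed in muscle whose proteins have LIM domains were counted for comparison. Of 11 genes 7 were lower and 4 higher by sign (median log2 fold change −0.08), and none passed after adjustment by edgeR. With an unadjusted p under 0.05, against 11.9% of all tested genes, there were Pdlim3 (log2 fold change −0.44, adjusted p = 0.292 by edgeR), Fhl3 (−0.55, adjusted p = 0.395) and Csrp3, the muscle LIM protein of the Z-disc (0.46, adjusted p = 0.302).

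Cells that could hold Isl1 RNA in this dissection were followed by marker lists. Of the second heart field markers 6 of 7 were tested, with 4 lower and 2 higher by sign. Their median log2 fold change was −0.50, which lies midway between 2 distant values, −0.93 for Fgf10 and −0.06 for Six2. Their summed CPM was 27.9 to 35.2 in CTRL and 15.6 to 24.1 in Isl1_hypo, without overlap. Most of that sum was Fgf10, a growth factor gene of second heart field progenitors, at 25.1, 25.0, 25.8 and 26.0 CPM in CTRL and 12.9, 12.4, 16.2 and 11.9 CPM in Isl1_hypo (log2 fold change −0.93, SE 0.143, adjusted p = 0.031 by edgeR). This call was lost, as was that of Isl1, with the globin covariate and with the replicate block. In those edgeR fits 0 genes passed, and 499 and 1582 had an unadjusted p under 0.05. The other alternatives were followed gene by gene only for the members, so how Fgf10 fared in them is not given. Some kept few genes, with 3 passing when Y-linked expression was fitted and 4 when CTRL replicate 3 was dropped. Isl1 passed in both, and the Fgf10 call cannot be taken to be as stable. Fgf8, Tbx1, Six2, Eya1 and Osr1 were each at 2.25 CPM or less on average in both groups, and none of them had an unadjusted p under 0.05.

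Neuronal markers, listed because ganglia and motor neurons also express Isl1, summed to 53.5 to 78.5 CPM in CTRL and 33.5 to 55.6 in Isl1_hypo, with overlap. Only 3 of 8 were tested, with a median log2 fold change of −0.45, and the motor neuron markers Mnx1 and Chat had no counts in any library. Stmn2 had an unadjusted p under 0.05 (log2 fold change −0.61, adjusted p = 0.328 by edgeR), as did 11.9% of all tested genes. Neural crest mesenchyme markers summed to 30.4 to 47.8 and 25.8 to 28.3 CPM (4 of 6 tested, all lower by sign, median −0.49), while the crest markers Sox10 and Foxd3 had at most 11 and 1 counts in any library. Among them Twist1 had an unadjusted p under 0.05 (log2 fold change −0.57, adjusted p = 0.343 by edgeR). Endothelial markers summed to 543 to 627 and 412 to 534 CPM (5 tested, 4 lower, median −0.20). Of these Pecam1 (log2 fold change −0.58, adjusted p = 0.17 by edgeR) and Cdh5 (−0.54, adjusted p = 0.241) had an unadjusted p under 0.05, and their groups did not overlap. The shares over all tested genes were 11.9% and 8.5%. Markers of pacemaker and sinus horn cells summed to 23.6 to 48.0 CPM in CTRL and 48.6 to 61.8 in Isl1_hypo (4 tested, 3 higher, median 0.70), with Tbx18 (18.3 ± 10.8 and 38.3 ± 6.59 CPM) as the largest part. Tbx18 (log2 fold change 1.07, adjusted p = 0.314 by edgeR) and Shox2 (1.38, adjusted p = 0.33) had an unadjusted p under 0.05, whereas the pacemaker channel gene Hcn4 was lower by sign (8.78 ± 1.502 and 5.44 ± 2.30 CPM, log2 fold change −0.69, adjusted p = 0.427 by edgeR). The crest, endothelial and pacemaker sums did not overlap between the groups, and their part in the Isl1 value was not tested. No share over other gene lists was taken for such sums.

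Lastly, the tested genes with at least 5 CPM were ordered by how closely their profile over the 8 libraries followed that of Isl1. Likeness was the root mean square difference of log2 CPM after each gene was centred on its own mean, so that 0 is an identical profile, and the median over 10743 genes was 1.22. The 5 nearest were Dkk1, a secreted WNT inhibitor (0.421), Zfhx4, a zinc finger homeobox factor (0.476), Col9a1, a collagen (0.551), Spock3, a secreted proteoglycan (0.557), and Crabp1, a retinoic acid binding protein (0.572). Dkk1 was at 26.7, 35.0, 26.7 and 26.3 CPM in CTRL and at 15.0, 6.48, 7.52 and 10.9 CPM in Isl1_hypo. Like Isl1, it was highest in CTRL replicate 2 and lowest in Isl1_hypo replicate 2. Zfhx4 was at 10.7, 12.4, 8.02 and 11.5 CPM in CTRL and at 4.83, 2.51, 3.57 and 3.63 CPM in Isl1_hypo. Because the groups of Isl1 lie far apart, genes chosen this way are also lower in Isl1_hypo. The likeness is over 8 libraries of 2 groups that differ in depth and in globin RNA, and it carries no test. Lmo1 and Lhx2 were below 5 CPM and were not placed. Of the 7 partners placed, Ldb1 came nearest (1.06, place 1141), followed by Lmo4 (1.15, place 2888), while Ssbp3 was among the far genes (1.32, place 8762).

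**Figure D5:**
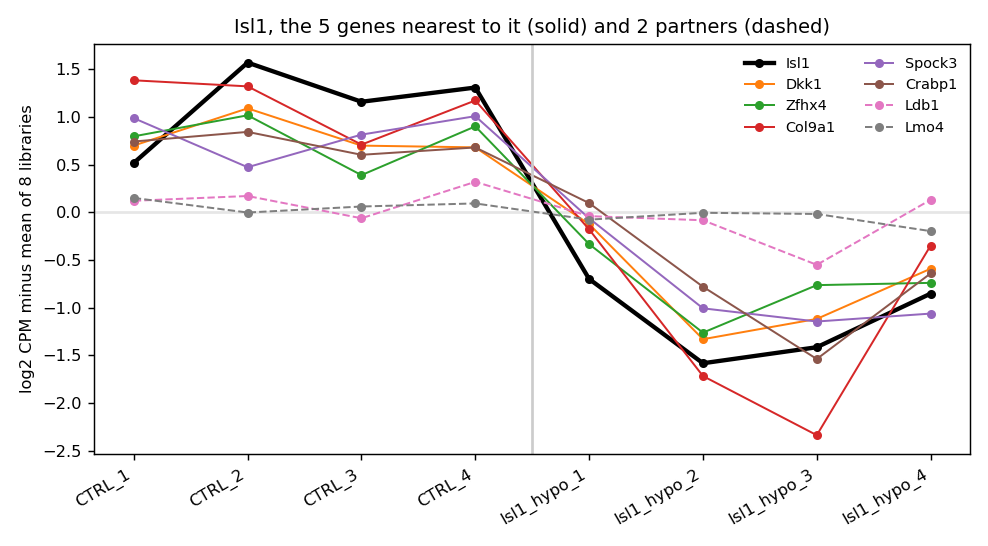
Log2 CPM minus the mean over the 8 libraries (y axis) in each library (x axis, CTRL on the left, Isl1_hypo on the right) for Isl1 (thick black), the 5 genes nearest to it (solid) and Ldb1 and Lmo4 (dashed). Lines join libraries only to guide the eye. Isl1 and the 5 genes are lower in every Isl1_hypo library than in any CTRL library, whereas Ldb1 and Lmo4 stay between −0.55 and 0.32.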

How the data were processed

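Each library is the OFT/RV of 1 embryo. The authors aligned reads with STAR to mm9 and counted exon reads per RefSeq transcript with HOMER, on both strands, so overlapping genes share reads. The deposited counts are whole numbers without normalization. The authors derived the deposited RPKM with edgeR, dividing these counts by transcript length and library total. The table also holds the authors' own DESeq2 comparison (mean, log2 fold change, its error, statistic and p-values), which was not used.

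Of 31507 transcripts the one with the highest mean count was kept per symbol (20701). Genes were filtered with filterByExpr, scaled by TMM and tested with edgeR 4.0.16 (glmQLFit, glmQLFTest, no covariates, Benjamini-Hochberg over 13769 genes) in R 4.3.3. The script was first tested on simulated data. The SE is the log2 fold change divided by the square root of F. Log2 CPM had a prior count of 2. Errors are SD over 4 embryos. P-values test the group difference against the spread between embryos, with dispersions partly shared between genes. Alternatives are given at the end. Gene coordinates are from GENCODE vM1 (mm9), promoters from RefSeq, placed in mm9 by exact match. All 10 members, list genes with an unadjusted p under 0.05 and the 5 genes most like Isl1 could be named. Further genes of these lists (Isl2, Rnf6, Lmo2, Actc1, Hcn4, Sox10, Foxd3, genes without counts, second heart field and epithelial markers) were named after their values were seen. Members, lists and tests were chosen with earlier results of these data known. One second heart field marker is not reported here and was left out of that list.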

Additional observations from a re-analysis of the deposited data

Results flagged for a closer look

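The 4 values of each group were searched for one that stood apart, in 54 groups, and 3 were found. About 1 in 20 groups, or 2.7, would be found by chance. The log2 CPM of Ssbp2 in CTRL replicate 1 was 6.76, against 6.51 to 6.53 in the other CTRL embryos. The log2 CPM of Ssbp3 in CTRL replicate 3 was 6.05, against 6.32 to 6.33. The log2 ratio of Ssbp3 to Ldb1 (RPKM) in Isl1_hypo replicate 3 was 1.96, against 0.58 to 0.76. The same library had the most globin RNA and the fewest detected genes.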

How the results depend on the processing

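Over 9 members and 20 alternatives, 167 of 180 fold changes kept their direction and side of the threshold, 11 changed sign and 2 lost significance. Isl1 ranged from −2.46 to −2.14. It lost significance with the replicate block (−2.29, adjusted p = 0.0722) and the globin covariate (−2.30, adjusted p = 0.519). In both of these edgeR fits 0 genes and 0 members passed, although 1582 and 499 genes, and 1 member in each, had an unadjusted p under 0.05. The count of 37 genes was 319 with DESeq2, 134 with limma-voom with sample quality weights and 3 with the Y-linked covariate. Without single libraries it ranged from 4 (without CTRL replicate 3) to 48 (without Isl1_hypo replicate 3), being 8 and 5 without CTRL replicates 1 and 2, and 12 and 11 without Isl1_hypo replicates 2 and 4. Isl1 passed in all 8 of those fits. Same-numbered libraries did not deviate together (correlations −0.0209 to 0.0219, 2 of 8 libraries closest to their own number). Such correlations cannot exclude a shared litter or batch, and the labels do not say whether the numbers pair embryos. The sign of Rlim turned with limma-voom (−0.0326) and the globin covariate (−0.14), that of Ssbp4 with the globin (−0.25) and Y-linked (−0.0101) covariates, and that of Ldb2 with the globin covariate (−0.19) and after thinning to equal totals (−0.0314). Leaving out 1 library gave −0.14 to 0.20 for Ldb2 and −0.0486 to 0.14 for Rlim. The causes were not tested. Thinning, removal of the length trend and the values by Y-linked expression were added after seeing the data. Counting depth limits Lhx2, which had 16 counts or fewer in each library.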
